A study of Homo sapiens with 118 samples.

Results

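The step from 0.125167 µM (C2) to 0.3755 µM (C3) apicidin was described in HepaRG, an established line of human liver cells. The 6 libraries of the step, 3 at each concentration, were taken by their dose group labels from 118 libraries of the whole series. In the series, differentiated HepaRG cells received 1 of 8 histone deacetylase inhibitors at 5 concentrations, and transcripts were counted with TempO-Seq. In this assay pairs of detector probes are ligated on the target transcript, amplified and sequenced, so a feature is a probe pair named by gene symbol and probe number. The stated purpose was a transcript set that classifies such inhibitors, and the C2 to C3 comparison addresses which transcripts change over 1 increase in concentration. Neighbouring concentrations of apicidin were 0.041722 µM (C1), 0.5 µM (C4) and 0.86 µM (C5), with 3 libraries each.

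Both groups of the step were treated alike except for concentration. The cells stayed in contact with apicidin for 72 hours with daily renewal, on plate H, and the solvent of the series was 0.5% DMSO. Replicates 1, 2 and 3 of each group came from 3 HepaRG batches (B326, B330 and B303 per the labels). Solvent control libraries were not used here, so every change is a change against a lower concentration of apicidin. HepaRG is a single line derived from a liver tumour, and the batches are lots of that line, not donors.

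Histone deacetylases remove acetyl groups from lysines of histones and other proteins. They act largely within corepressor complexes that keep genes silent, and their inhibition raises histone acetylation and changes expression in both directions. Apicidin is a cyclic tetrapeptide made by a fungus and inhibits mainly the class I enzymes. Differentiated HepaRG cultures hold hepatocyte-like and biliary-like cells and are used because they keep liver functions such as drug metabolism and bile acid synthesis.

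Total counts were 4458844, 4748357 and 3699849 in the C2 libraries and 4305418, 4168706 and 3953480 in the C3 libraries, so depth overlapped. The 10 features with the most counts held 7.79% to 9.19% of all counts at C2 and 5.43% to 6.66% at C3. Of the fixed markers, those of hepatocytes (ALB, APOA1, TTR, SERPINA1, CYP3A4 and HNF4A) were present, with summed levels of 34656 to 46392 CPM (counts per 1000000 of the scaled library size) at C2 and 16756 to 28549 CPM at C3. The biliary markers summed to 74.5 to 89.1 CPM at C2 and 137 to 173 CPM at C3, carried by KRT19 and SOX9, while EPCAM had at most 1 count and KRT7 at most 11 counts in a library. The label calls the cells liver progenitor cells. Of markers used for progenitors, EPCAM was thus near 0, while SOX9 had 22.9 to 94 CPM over the 6 libraries. Whether the EPCAM probe detects its target was not tested. Mesenchymal markers summed to 26.5 to 33.4 CPM at C2 and 32.6 to 41.7 CPM at C3. PTPRC, CD3E and CDH5 had 0 counts in all 6 libraries. In lysates of whole cultures, fewer cells of a type and less RNA per cell cannot be told apart.

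In a principal component analysis of the 15 apicidin libraries, the gap between C2 and C3 was the widest between neighbouring concentrations on the first component, which held 40.1% of the variance. C4 replicate 1 stood apart on the second component, at 87.6 where all others lay between -28.8 and 16.4. That library is in neither group of the step, but it enters the common estimate of the spread, and counts are therefore also given without it.

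**Figure D1:**
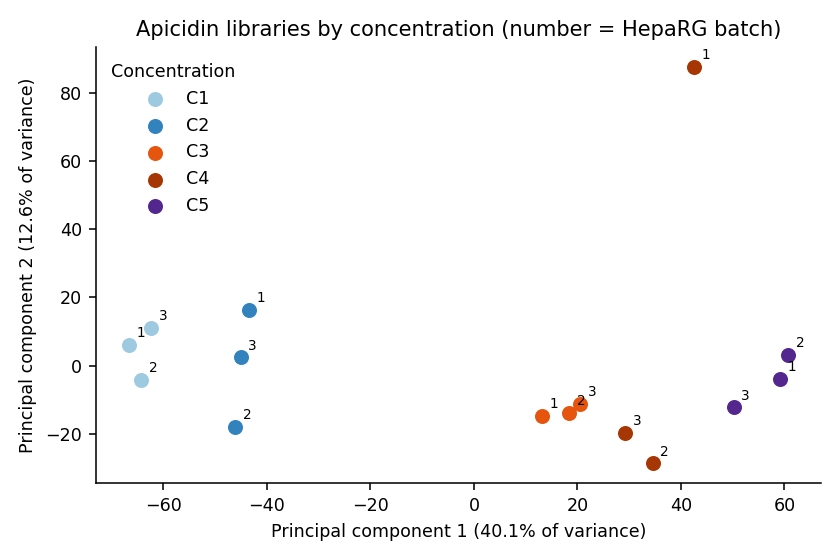
Principal components 1 and 2 of log2 CPM in the 15 apicidin libraries; colours mark the concentrations C1 to C5 and the number beside each point is the HepaRG batch. C1 and C2 libraries lie on the left, C3, C4 and C5 libraries on the right, and C4 replicate 1 lies apart at 87.6 on the second component.

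Between C2 and C3, 388 features rose and 600 fell. A feature was called changed when edgeR's quasi-likelihood test gave a Benjamini-Hochberg adjusted p under 0.05 and the fold change was at least 1.5. Rising calls made up 3.05% and falling calls 4.72% of the 12706 features tested. The features belonged to 379 rising and 573 falling gene symbols, and 0 of the 35 symbols with several called features had both directions. The median change of rising features was 2.04-fold and that of falling features 2.23-fold, while the median log2 change over all features tested was 0.01. Changes of at least 2 on the log2 scale occurred in 47 rising and 114 falling features.

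The C3 minus C2 difference had the same sign in all 3 batches in 387 of the rising and 599 of the falling features, and in 45.5% of all features tested. The libraries of C2 and C3 did not overlap in 384 of the rising and 597 of the falling features, and in 30.8% of all features tested. The called features were chosen on these same 6 libraries, so their shares follow largely from the call and are no separate support. The number of calls depended on single libraries. It lay between 606 and 637 without C2 replicate 1, C2 replicate 3 or any 1 of the C3 libraries, and it was 710 without C2 replicate 2. It was 870 without batch 1, 332 without batch 2 and 216 without batch 3. Without C4 replicate 1 the number was 1424, among them 987 of the 988, and when batch 2 or batch 3 was left out as well it was 1396 or 981.

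Rising features with the largest change, among those with at least 10 CPM at C3, were mostly scarce at C2. First by this order was CALB1, a calcium-binding protein of neurons and kidney, which had 0, 0 and 1.39 CPM in the C2 libraries and 4.83, 6.74 and 19.7 CPM in the C3 libraries. All C3 values lay above the C2 values, with a log2 change of 4.55 (edgeR adjusted p = 0.00886, SE 1.05). Without C2 replicate 1 or C3 replicate 3 its call was lost, with a highest edgeR adjusted p of 0.0598. CGA, the common subunit of pituitary and placental glycoprotein hormones, had 0.701, 2 and 0.557 CPM at C2 and 13.6, 13.7 and 10.1 CPM at C3. The C3 libraries were close together and all above C2 (log2 change 3.45, SE 0.621, edgeR adjusted p = 0.0013). S100A12, a calcium-binding protein of neutrophils, had 1.4, 0.444 and 1.11 CPM at C2 and 10.6, 11.6 and 9.37 CPM at C3. Again the groups did not overlap, and the log2 change was 3.39 (SE 0.625, edgeR adjusted p = 0.00156).

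The next were MYL1, a myosin light chain of fast muscle, with a log2 change of 3.14, and TMEM100, a membrane protein, with 2.96. C15orf48, which encodes a mitochondrial protein, rose from 4.91, 3.77 and 5.85 CPM to 21.4, 28.4 and 30.6 CPM. Every C3 library held more than every C2 library, and the log2 change was 2.47 (SE 0.299, edgeR adjusted p = 1.73e-05). DNAI1, a dynein chain of motile cilia, rose by 2.39, SCEL, a protein of the cornified envelope, by 2.38, and IGFL1, a secreted protein, by 2.35 on the log2 scale. FABP4, the fatty acid binding protein of adipocytes, rose from 8.18, 6.44 and 8.36 CPM to 31.9, 30.8 and 46.4 CPM, a log2 change of 2.25 (edgeR adjusted p = 0.000151, SE 0.331). TNFAIP6, a secreted hyaluronan-binding protein, rose by 2.10 on the log2 scale, and its call was lost without C2 replicate 3 or C3 replicate 2 (highest edgeR adjusted p = 0.063).

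Rising features also included 7 without a count in any C2 library. They were named after their values were seen, and fold changes are lower bounds computed with 3 counts per library. DUSP19, a phosphatase, had 39 counts in all at C3 and was at least 4.2-fold higher. SEMG2, a seminal plasma protein, was at least 3.72-fold higher, S100A7, a protein of skin, at least 3.67-fold, and FAM3B, a secreted protein of pancreatic islets, at least 3.14-fold. SLC17A6, a vesicular glutamate transporter, was at least 2.95-fold higher, FGF9, a growth factor, at least 2.89-fold, and FRG2 at least 2.14-fold. These are low counts, 20 to 39 in the C3 group as a whole.

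Falling features with the largest change, among those with at least 10 CPM at C2, are given next. HPR, a haptoglobin-related plasma protein, had 19.6, 26.2 and 22 CPM at C2 and 0.689, 1.69 and 0.493 CPM at C3. The groups lay far apart (log2 change -4.52, SE 0.476, edgeR adjusted p = 3.85e-06). HP is nearly identical in sequence, so the gene behind the HPR probe is uncertain. SLC22A7, an organic anion transporter of the liver and kidney, had 28.7, 33.5 and 30.4 CPM at C2 and 0.23, 4.09 and 0.74 CPM at C3. Its C3 libraries differed among themselves, with batch 2 the highest, yet all lay below C2 (log2 change -4.18, SE 0.546, edgeR adjusted p = 4.28e-05).

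FABP1, the fatty acid binding protein of hepatocytes, was measured by 2 features. The more abundant one had 270, 267 and 257 CPM at C2 and 31.3, 15.4 and 19.2 CPM at C3, and the other had 44.6, 47.1 and 36.2 CPM and then 5.29, 0.723 and 1.23 CPM. Both features fell without overlap, by 3.59 (SE 0.248, edgeR adjusted p = 3.92e-08) and 4.11 (SE 0.493, edgeR adjusted p = 1.6e-05) on the log2 scale. HAO2, a peroxisomal hydroxyacid oxidase of liver and kidney, had 398, 307 and 291 CPM at C2 and 33.1, 34.4 and 17.8 CPM at C3. It fell by 3.54 on the log2 scale (edgeR adjusted p = 9.19e-08, SE 0.263).

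Others of this group were AGXT2, an aminotransferase of kidney and liver (log2 change -3.77), AFM, a plasma carrier protein of the albumin family (-3.75), and SERPINA10, an inhibitor of coagulation factor X (-3.31). CFHR3, a complement regulator with near-identical relatives, fell by 3.35. TNFRSF11B, the secreted decoy receptor osteoprotegerin, fell by 3.66, and this call was lost without C3 replicate 3 (edgeR adjusted p = 0.0501). Features without a count at C3 were INHBE, a secreted liver protein, at least 8.47-fold lower, SLC28A1, a nucleoside transporter, at least 4.72-fold, and SLC43A3, a purine transporter, at least 3.76-fold. These 3 were named after their values were seen.

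**Figure D2:**
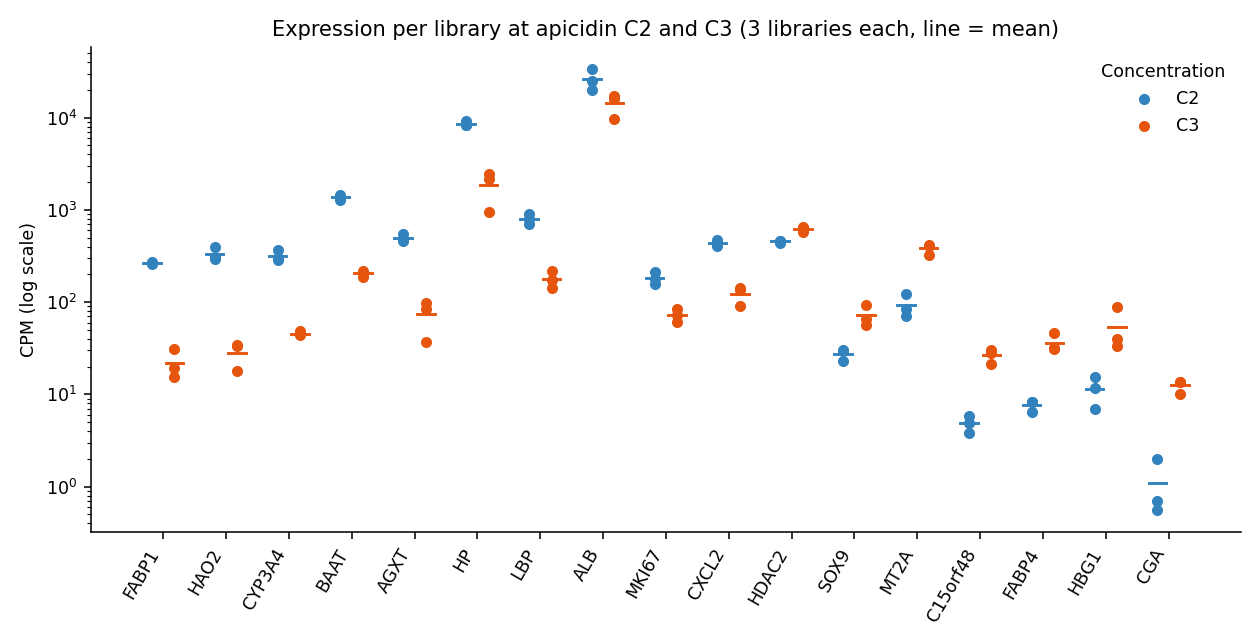
CPM per library on a log axis for 17 features at C2 (blue, 0.125167 µM) and C3 (orange, 0.3755 µM); points are the 3 libraries of a group and lines their means. For each of the 17 features the libraries of both groups do not overlap, as in 30.8% of all features tested, and FABP1 falls from a mean of 265 to 22 CPM while MT2A rises from 92.3 to 383 CPM.

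Promoters of some features with the largest change are shown because inhibitors of this class act on transcription. So few promoters cannot show what affected start regions have in common. RefSeq promoter sequences (GRCh38.p14) were matched for 313 of 379 rising and 441 of 573 falling symbols, and 1 promoter was shared by a pair of the falling symbols. The 150 bases before the gene start are given in the direction of transcription for CGA (chr6:87095107-87095256, minus strand), S100A12 (chr1:153375622-153375771, minus strand), SLC22A7 (chr6:43298110-43298259, plus strand) and FABP1 (chr2:88128063-88128212, minus strand). HPR and CALB1 are named only. Capitals mark the motifs searched on both strands, namely the GC box GGGCGG, the CCAAT box CCAAT, the TATA box TATAAA and the HNF1 motif GTTAAT.
CGA: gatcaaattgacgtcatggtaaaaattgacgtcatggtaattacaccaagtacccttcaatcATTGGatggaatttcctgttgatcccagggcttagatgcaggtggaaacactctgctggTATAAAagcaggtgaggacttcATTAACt
S100A12: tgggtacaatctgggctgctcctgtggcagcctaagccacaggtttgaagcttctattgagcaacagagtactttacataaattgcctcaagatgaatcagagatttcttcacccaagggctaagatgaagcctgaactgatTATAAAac
SLC22A7: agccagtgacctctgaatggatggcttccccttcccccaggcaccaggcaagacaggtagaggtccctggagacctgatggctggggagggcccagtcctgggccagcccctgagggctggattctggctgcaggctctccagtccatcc
FABP1: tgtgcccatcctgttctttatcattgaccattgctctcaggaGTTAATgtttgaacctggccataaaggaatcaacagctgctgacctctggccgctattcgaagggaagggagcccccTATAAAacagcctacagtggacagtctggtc

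In these windows the letters TATAAA began at -29 in CGA, -8 in S100A12 and -31 in FABP1, counted back from the gene start. CGA also held a CCAAT box on the opposite strand at -88 and an HNF1 motif on the opposite strand at -7, and FABP1 held an HNF1 motif at -108. No letters of the searched motifs were in the window of SLC22A7. Over the 300-base promoter windows of the table, the GC box was in 65.2% of rising and 47.5% of falling genes, against 67.7% of the genes tested and 44.6% of all promoters. The HNF1 motif was in 3.51% of rising and 10.5% of falling genes, against 4.14% of the genes tested and 6.89% of all promoters. The TATA box was in 10.9% of rising and 14.3% of falling genes, against 6.39% and 12.0%, and the CCAAT box in 46.0% and 35.0%, against 37.7% and 35.7%. These shares are descriptions, and a match is not evidence of binding.

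Secreted proteins of the hepatocyte fell in 17 of 21 features tested and rose in 0, with a median log2 change of -1.08. The share called was 81.0%, against 7.78% of all features tested. ALB, the most abundant plasma protein, had 20195, 33360 and 24725 CPM at C2 and 17280, 16104 and 9790 CPM at C3. The groups did not overlap but the gap was small (log2 change -0.86, SE 0.249, edgeR adjusted p = 0.0367), and the call was lost without C2 replicate 2 or 3 or C3 replicate 2 or 3, with a highest edgeR adjusted p of 0.187. APOA2, a protein of high density lipoprotein, had 344, 242 and 180 CPM at C2 and 76.8, 28.2 and 13.3 CPM at C3. It fell by 2.69 on the log2 scale (edgeR adjusted p = 0.00182, SE 0.505), as did the fetuin AHSG, which fell by 2.69 (SE 0.527, edgeR adjusted p = 0.00269). ITIH1, a hyaluronan-binding plasma protein, fell by 1.65. The summed level of the list was 53530 to 65430 CPM at C2 and 23200 to 39660 CPM at C3.

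Complement, coagulation and acute-phase proteins fell in 17 of 27 features and rose in 0 (63.0% called, against 7.78% of all features tested, median -1.29). HP, the haemoglobin-binding haptoglobin, had 9208, 8310 and 8397 CPM at C2 and 2469, 2185 and 941 CPM at C3. Batch 3 was lowest at C3, and the groups were well apart (log2 change -2.21, SE 0.281, edgeR adjusted p = 3.17e-05). LBP, which binds bacterial lipopolysaccharide, had 895, 711 and 791 CPM at C2 and 217, 172 and 141 CPM at C3, a log2 change of -2.17 (edgeR adjusted p = 2.47e-06, SE 0.219). The coagulation factors F7 and F11 fell by 2.65 and 2.44 on the log2 scale.

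Drug-metabolising enzymes fell in 23 of 39 features and rose in 0 (59.0% called, against 7.78% of all features tested, list median -1.28). CYP3A4, the main drug-oxidising cytochrome of the adult liver, was measured by 2 features. The more abundant one had 300, 368 and 284 CPM at C2 and 44.6, 43.8 and 48.3 CPM at C3, and the other had 40.4, 48.8 and 22.3 CPM and then 8.5, 1.2 and 5.92 CPM. They fell by 2.80 (SE 0.23, edgeR adjusted p = 2.32e-07) and 2.83 (SE 0.521, edgeR adjusted p = 0.00156) on the log2 scale. Relatives within the CYP3A family are similar in sequence, and the probes were not checked against them.

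ADH4, an alcohol dehydrogenase of the liver, had 71, 52.8 and 52.4 CPM at C2 and 4.14, 5.3 and 2.96 CPM at C3, and fell by 3.82 on the log2 scale (edgeR adjusted p = 1.09e-07, SE 0.291). CYP2C8, which oxidises drugs and arachidonic acid, fell by 3.26, and SULT2A1, a sulfotransferase of steroids and bile acids, fell by 2.91. One feature of CYP2C19, another drug-oxidising cytochrome, had 55 counts at C2 and 2 at C3, a ratio of 27.9 with an exact 95% counting interval from 7.37 to 236. Its call was lost in 4 of 6 fits that each left out 1 library of the step, namely C2 replicate 1 or 3 or C3 replicate 2 or 3 (highest edgeR adjusted p = 0.0988). The other CYP2C19 feature had 2.36 CPM at C2 and 2.71 CPM at C3 (log2 change 0.18, edgeR adjusted p = 0.934), so the features of this gene disagreed.

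Bile acid synthesis and transport fell in 9 of 17 features and rose in 0 (52.9% called, against 7.78% of all features tested). All 17 lay below 0, with a median log2 change of -1.68. CYP7A1, the rate-limiting enzyme of bile acid synthesis, had 34.8, 21.1 and 26.7 CPM at C2 and 5.29, 2.41 and 0.987 CPM at C3. The groups were apart (log2 change -3.22, SE 0.470, edgeR adjusted p = 0.000137). BAAT, which conjugates bile acids to glycine and taurine, had 1454, 1360 and 1289 CPM at C2 and 209, 220 and 187 CPM at C3. Libraries within each group were close together, and the log2 change was -2.73 (SE 0.168, edgeR adjusted p = 9.33e-09).

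SLCO1B1, which takes up bile acids and drugs from blood, fell from 79.7, 87.7 and 77.4 CPM to 14.2, 13.5 and 7.15 CPM, a log2 change of -2.81 (edgeR adjusted p = 3.76e-06, SE 0.292). CYP8B1, the sterol hydroxylase needed for cholic acid, had 104 counts at C2 and 2 at C3, a ratio of 52.8 with an exact 95% counting interval from 14.2 to 441. One feature of ABCB11, the bile salt export pump, had 42 counts at C2 and 2 at C3 (ratio 21.3, 5.54 to 182), and its call was lost without any 1 library of the step other than C3 replicate 1 (highest edgeR adjusted p = 0.157). The other ABCB11 features tested were not called, at 8.68 and 3.9 CPM (log2 change -1.15, edgeR adjusted p = 0.352) and at 3.68 and 1.13 CPM (log2 change -1.69, edgeR adjusted p = 0.346). These intervals cover counting error only.

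Transcription factors and nuclear receptors of the hepatocyte had 4 falling and 1 rising of 27 features, with a median log2 change of -0.50. Of this list 18.5% was called, against 7.78% of all features tested. NR1I3 (CAR), a receptor that induces drug metabolism, had 32.2, 28 and 18.4 CPM at C2 and 4.37, 6.02 and 1.48 CPM at C3. It fell by 2.72 on the log2 scale (edgeR adjusted p = 0.0013, SE 0.490). A second NR1I3 feature, at 2.87 and 0.938 CPM, was not called (log2 change -1.57, edgeR adjusted p = 0.411). NR1I2 (PXR), the receptor that induces CYP3A4, fell in 2 features, by 1.96 (SE 0.445, edgeR adjusted p = 0.00827) and, in a feature named after its values were seen, by 1.91.

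CEBPA, a factor of hepatocyte and adipocyte differentiation, had 8.88, 9.1 and 15.9 CPM at C2 and 3.91, 2.89 and 0.74 CPM at C3. It fell by 2.14 (SE 0.569, edgeR adjusted p = 0.023), and the call was lost without C2 replicate 3, C3 replicate 2 or C3 replicate 3 (highest edgeR adjusted p = 0.11). ONECUT2, a factor of hepatic and biliary development, rose by 1.08 (SE 0.327, edgeR adjusted p = 0.0467), and this call remained only without C2 replicate 1 among 6 fits without 1 library (highest edgeR adjusted p = 0.217). HNF4A, a central regulator of hepatocyte genes, had 8.18, 14.4 and 9.75 CPM at C2 and 6.44, 2.17 and 2.71 CPM at C3. Its groups did not overlap, but with a log2 change of -1.51 (edgeR adjusted p = 0.118, SE 0.564) it did not pass the test. The log2 differences of C3 minus C2 were -0.32, -2.50 and -1.68 in batches 1, 2 and 3.

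Fatty acid oxidation and ketogenesis had 6 falling and 1 rising of 20 features (35.0% called, against 7.78% of all features tested, median -0.57). ACADL, an acyl-CoA dehydrogenase, fell by 1.48 in 1 of 2 features (the other had a log2 change of -1.25, edgeR adjusted p = 0.0634). The feature that rose was that of PDK4, the kinase that restrains pyruvate oxidation, which had 117, 75.3 and 75.5 CPM at C2 and 210, 251 and 223 CPM at C3 (log2 change 1.35, SE 0.229, edgeR adjusted p = 0.000704).

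Amino acid breakdown, urea cycle and gluconeogenesis had 7 falling and 0 rising of 18 features (38.9% called, against 7.78% of all tested, median -0.87). ARG1, the arginase of the urea cycle, had 78, 98.4 and 81.3 CPM at C2 and 11, 11.6 and 7.89 CPM at C3 (log2 change -3.07, SE 0.332, edgeR adjusted p = 4.91e-06). AGXT, which detoxifies glyoxylate, fell by 2.75 and ASS1 of the urea cycle by 1.59 on the log2 scale. Cholesterol and fatty acid synthesis had 2 falling and 0 rising of 23 features (8.7% called, against 7.78% of all features tested), with a median of -0.22. These were FASN, the fatty acid synthase (log2 change -0.77), and HMGCS1 of the cholesterol pathway (-0.94), whose call was lost without C2 replicate 1 or 3 or C3 replicate 1 or 2 (highest edgeR adjusted p = 0.159).

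Biliary and progenitor markers had 3 rising and 0 falling of 8 features tested (37.5% called, against 7.78% of all features tested). Of the 8, 6 lay above 0 and 2 below, AFP (log2 change -0.62) and ITGB4 (-0.56), both not called. The median log2 change was 0.82, and 12 of the 20 features of the list failed the filter on low counts. SOX9, a transcription factor of bile duct cells and progenitors, had 22.9, 30.6 and 29.2 CPM at C2 and 66, 56.1 and 94 CPM at C3. The groups were apart (log2 change 1.38, SE 0.227, edgeR adjusted p = 0.000501). SPP1 (osteopontin), a secreted phosphoprotein of bile ducts and bone, had 15.7, 14 and 14.2 CPM at C2 and 29.4, 56.1 and 62.7 CPM at C3 (log2 change 1.75, SE 0.355, edgeR adjusted p = 0.00358).

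KRT19, a keratin of bile duct cells, gave different results by feature. One rose from 36.4, 35.3 and 37.9 CPM to 59.1, 69.6 and 57.7 CPM (log2 change 0.77, SE 0.203, edgeR adjusted p = 0.023), and this call was lost without any 1 library of the step (highest edgeR adjusted p = 0.108). The other had 13.8, 8.88 and 21.2 CPM at C2 and 11.3, 19 and 19 CPM at C3, groups that overlapped (edgeR adjusted p = 0.883). Of the mesenchymal and matrix genes, 3 features rose and 1 fell of 24 (16.7% called, against 7.78% of all features tested, median -0.18). COL1A1, a chain of type I collagen, rose by 1.72 (SE 0.376, edgeR adjusted p = 0.0063), and CCN1 and CCN2, matricellular proteins, by 1.09 and 0.89. COL6A1, a collagen VI chain, fell by 0.88. The calls of CCN1 and CCN2 were lost without C2 replicate 1, C2 replicate 3 or C3 replicate 3 (highest edgeR adjusted p = 0.118 and 0.0615), and that of COL6A1 without replicate 2 or 3 of either group (0.111).

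**Figure D3:**
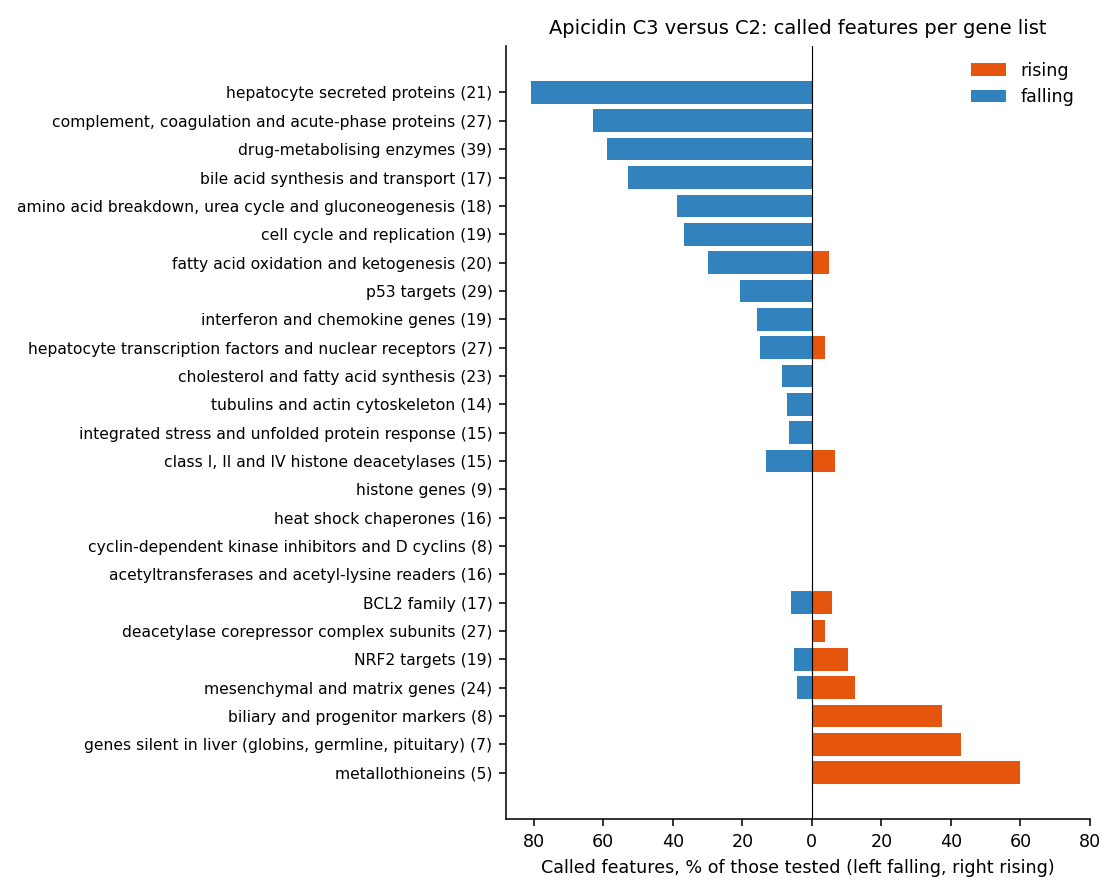
Called features as a percentage of the features tested in each gene list, falling to the left in blue and rising to the right in orange; the number after each list name is the number of features tested, and only lists with at least 5 are drawn. Hepatocyte secreted proteins have the longest falling bar, 17 of 21, and metallothioneins the longest rising bar, 3 of 5; over all features tested 3.05% rose and 4.72% fell.

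Histone deacetylase genes themselves had 1 rising and 2 falling features of 15, with a median log2 change of -0.10. HDAC3, the class I enzyme of the NCOR complex, had 60.5, 56.2 and 54.9 CPM at C2 and 101, 93.9 and 111 CPM at C3 (log2 change 0.83, SE 0.224, edgeR adjusted p = 0.0248). The groups were apart, but the call remained only without C3 replicate 2 among the 6 fits without 1 library (highest edgeR adjusted p = 0.0936). HDAC6, the cytoplasmic deacetylase of tubulin, had 684, 568 and 682 CPM at C2 and 312, 370 and 363 CPM at C3 in its most abundant feature (log2 change -0.89, SE 0.158, edgeR adjusted p = 0.0012). A second of its 4 tested features also fell (log2 change -0.69).

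HDAC2, a class I enzyme of several corepressors, had 458, 465 and 441 CPM at C2 and 572, 630 and 651 CPM at C3. It lay higher in every C3 library and had an edgeR adjusted p of 0.0314, but its 1.36-fold change was under the threshold. HDAC1 (log2 change 0.45, SE 0.310, edgeR adjusted p = 0.467) and HDAC8 (log2 change -0.24, SE 0.328, edgeR adjusted p = 0.752) did not pass, and their groups overlapped. The signs of both turned without batch 3. Of the deacetylase corepressor subunits 1 of 27 features rose and 0 fell (3.7% called, against 7.78% of all features tested, list median 0.05). GPS2 of the NCOR complex rose from 142, 132 and 137 CPM to 236, 242 and 277 CPM (log2 change 0.88, SE 0.178, edgeR adjusted p = 0.00362).

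Acetyltransferases and acetyl-lysine readers had 0 calls in 16 features (median 0.03) and histone genes 0 in 9 (median -0.07). Over all features tested 7.78% were called, so 0 calls in lists this short say little. H1F0, the linker histone of resting cells that deacetylase inhibitors are known to induce, had 14.5, 6.66 and 16.7 CPM at C2 and 13.8, 10.8 and 11.1 CPM at C3. Its groups overlapped, and the log2 change was -0.07 (SE 0.365, edgeR adjusted p = 0.946), with a sign that turned without batch 3, C2 replicate 1 or C2 replicate 3. CDKN1A, the p21 inhibitor of the cell cycle and another known responder, had 0.279 to 3.97 CPM at C2 and 0.46 to 2.22 CPM at C3. It failed the filter on low counts, so a change was not measurable with this probe. Other cyclin-dependent kinase inhibitors and D cyclins had 0 calls in 8 features (median 0.08), against 7.78% of all features tested.

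Cell cycle and replication genes had 7 falling and 0 rising of 19 features, all 19 below 0, with a median log2 change of -0.78. Of the 19, 36.8% were called, against 7.78% of all features tested. MKI67, a marker of cycling cells, had 214, 159 and 179 CPM at C2 and 73.3, 60.9 and 84.6 CPM at C3 (log2 change -1.33, SE 0.194, edgeR adjusted p = 0.000137). TYMS, the thymidylate synthase, had 587, 560 and 573 CPM at C2 and 239, 228 and 277 CPM at C3 (log2 change -1.21, SE 0.143, edgeR adjusted p = 1.41e-05). Libraries of both genes were apart between the groups. CCNA2, a cyclin of the S and G2 phases, fell by 1.30 and TOP2A, a topoisomerase, by 0.92. The call of CCNA2 was lost without C2 replicate 2 or 3 or C3 replicate 1 or 2 (highest edgeR adjusted p = 0.109), and that of TOP2A without any 1 library of the step (0.145).

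Targets of p53 had 6 falling and 0 rising of 29 features (20.7% called, against 7.78% of all features tested, median -0.31). MDM2, the ubiquitin ligase of p53, fell in 3 features, most in the one that went from 203, 240 and 203 CPM to 97.9, 107 and 139 CPM (log2 change -0.91, SE 0.235, edgeR adjusted p = 0.0189). BAX, a promoter of apoptosis, fell by 0.63 (SE 0.134, edgeR adjusted p = 0.00509), FAS, a death receptor, by 0.74, and TP53I3, an oxidoreductase, by 0.63 in 1 of 3 features. The calls of the MDM2 feature with values given and of FAS were lost without C2 replicate 2, C3 replicate 1 or C3 replicate 2 (highest edgeR adjusted p = 0.106 and 0.0912). That of TP53I3 was lost without any 1 library (highest edgeR adjusted p = 0.198). BAX fell under the fold threshold without C2 replicate 1 or C3 replicate 1. In the BCL2 family, BAX fell and 1 of 4 tested features of BCL2L11 (BIM), a promoter of apoptosis, rose by 0.91 among 17 features (11.8% called, against 7.78% of all features tested, list median 0.12). This feature had 45.8, 46.2 and 44.8 CPM at C2 and 58.6, 116 and 82.6 CPM at C3 (SE 0.255, edgeR adjusted p = 0.0306), and its call remained only without C3 replicate 1 among the 6 fits without 1 library (highest edgeR adjusted p = 0.211). The other BCL2L11 features had log2 changes of -0.20, 0.52 and 1.08 and were not called, with edgeR adjusted p-values from 0.127 to 0.935.

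Stress genes were mixed. Metallothioneins, small metal-binding proteins, had 3 rising and 0 falling of 5 features tested (60.0% called, against 7.78% of all features tested, median 1.64). MT2A had 84.6, 121 and 71 CPM at C2 and 416, 327 and 406 CPM at C3, with the groups far apart (log2 change 2.05, SE 0.222, edgeR adjusted p = 5.18e-06). MT1M had 18, 22 and 25.6 CPM at C2 and 80.2, 60 and 64.4 CPM at C3 (log2 change 1.64, SE 0.263, edgeR adjusted p = 0.000388). MT1X rose by 1.96, and its call was lost without C2 replicate 3 (edgeR adjusted p = 0.0638). These genes are close relatives in sequence, and the probes were not checked against each other.

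NRF2 targets had 2 rising and 1 falling of 19 features (15.8% called, against 7.78% of all features tested, list median -0.34). SRXN1, which repairs oxidised peroxiredoxins, rose from 164, 146 and 163 CPM to 257, 267 and 325 CPM (log2 change 0.84, SE 0.154, edgeR adjusted p = 0.00142), and TXNRD1, a thioredoxin reductase, rose by 0.67. ABCC3, an export pump for organic anions, fell by 1.07 in 1 of 3 features. The call of TXNRD1 was lost without replicate 1 or 3 of either group (highest edgeR adjusted p = 0.181). Heat shock chaperones had 0 calls in 16 features (0.0% called, against 7.78% of all features tested, median 0.16). The integrated stress and unfolded protein response had 1 falling of 15 (6.7% called, against 7.78% of all features tested, median -0.13). This was TRIB3, a pseudokinase of that response (log2 change -0.80). The TRIB3 call was lost without any 1 library of the step (highest edgeR adjusted p = 0.14).

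Interferon and chemokine genes had 3 falling and 0 rising of 19 features (15.8% called, against 7.78% of all features tested, median -0.06). The 3 were features of chemokines that attract neutrophils. CXCL2 had 404, 447 and 468 CPM at C2 and 135, 143 and 90 CPM at C3 (log2 change -1.84, SE 0.175, edgeR adjusted p = 1.24e-06). A second CXCL2 feature, at 14.1 and 6.7 CPM, was not called (log2 change -1.08, edgeR adjusted p = 0.29). CXCL1 had 166, 233 and 202 CPM and then 63, 63.3 and 46.1 CPM, a log2 change of -1.80, and CXCL8 changed by -0.81. Tubulins and actin cytoskeleton had 1 falling of 14 features (7.1% called, against 7.78% of all features tested). It was GSN, the actin-severing gelsolin (log2 change -0.90, list median -0.03). Markers of blood and endothelial cells had 0 calls in 3 tested features (median -0.38), and 14 of the 17 failed the filter.

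Genes that are usually silent in liver had 3 rising and 0 falling of 7 features tested (42.9% called, against 7.78% of all features tested). The median log2 change was 0.47, and 11 of the 18 features of the list failed the filter on low counts. CGA and CCK lay near 0 at C2 and could pass that filter only where they were higher, so the count is a description of the tested features. Besides CGA these were CCK, a gut and brain peptide, and HBG1, the foetal gamma globin. CCK had 0.467, 0.222 and 0.836 CPM at C2 and 4.6, 4.82 and 3.21 CPM at C3 (log2 change 3.03, SE 0.697, edgeR adjusted p = 0.00887), and its call was lost without C2 replicate 2 (edgeR adjusted p = 0.0515). HBG1 had 7.01, 11.8 and 15.6 CPM at C2 and 33.8, 40 and 87.6 CPM at C3 (log2 change 2.23, SE 0.354, edgeR adjusted p = 0.00036). The copy HBG2 is nearly identical, and its own probe had 0 counts, so the HBG1 reads may come from either gene. The germline antigens GAGE1, MAGEA1 and MAGEA4 were counted at both concentrations and did not pass the test, with log2 changes from -0.91 to 0.47.

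Of 25 features of neuronal genes that REST, a repressor working through deacetylases, keeps off in liver, 22 failed the filter on low counts. The 3 tested had a median log2 change of 2.79, and 2 rose, CALB1 and SCG2, a granin of secretory vesicles. SCG2 had 0.934, 1.33 and 0.279 CPM at C2 and 5.75, 6.02 and 6.91 CPM at C3 (log2 change 2.79, SE 0.544, edgeR adjusted p = 0.00262). A feature that passed the filter only through its C3 libraries had to differ, so these counts say nothing of the neuronal list as a whole.

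The step below, C1 to C2, has the same 3-fold ratio of concentrations. It had 9 rising calls (0.0708% of the features tested) and 4 falling calls (0.0315%), with 728 features at an unadjusted p under 0.05, against 2628 in the C2 to C3 step. These comparisons share the C2 libraries. HBG1 rose in the lower step by 2.84 (SE 0.454, edgeR adjusted p = 0.0261), MYOZ2, a muscle protein of the Z disc, by 2.38 and SLC16A12, a creatine transporter, by 1.15 on the log2 scale. RDH16, a retinol dehydrogenase, fell by 1.97, S100A2, a calcium-binding protein, by 1.5, SERPINF2, an inhibitor of plasmin, by 1.16, and ANG, a secreted ribonuclease named after its values were seen, by 0.90. In the C2 to C3 step these features changed by 2.23 (HBG1), 0.06 (MYOZ2, edgeR adjusted p = 0.958), 1.06 (SLC16A12), -2.74 (RDH16), -1.64 (S100A2) and -2.25 (SERPINF2). MYOZ2 was thus at 3.2 CPM at C1, 16.8 CPM at C2 and 17.5 CPM at C3. Without batch 2 or batch 3 the lower step had 0 calls, and without batch 1 it had 5. Without C4 replicate 1 it had 54.

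The difference of both 3-fold steps was tested in the same fit. It was above 0 in 4 features (0.0315%) and below 0 in 35 (0.275%), with 804 at an unadjusted p under 0.05. Below 0 were HPR (log2 difference -4.33, SE 0.673, edgeR adjusted p = 0.00354), SLC22A7 (-3.87, SE 0.784, edgeR adjusted p = 0.0375) and CXCL13, a chemokine for B cells (-3.47, SE 0.669, edgeR adjusted p = 0.0317). CXCL13 had 602, 559 and 483 CPM at C2 and 113, 61.9 and 29.4 CPM at C3. Above 0 were STXBP5, a syntaxin-binding protein (3.46), GPRC5A, a receptor induced by retinoic acid (2.56), DCBLD2, a membrane protein (1.73), and BTBD11 (1.5), the last named after its values were seen. STXBP5 had a mean of 10.6 CPM at C1, 3.71 CPM at C2 and 14.5 CPM at C3. Its difference thus includes a fall in the lower step (log2 change -1.50, not called). DCBLD2 had 76.4, 82.8 and 97.2 CPM at C2 and 276, 263 and 371 CPM at C3, after a mean of 79.9 CPM at C1. This count was 53 without batch 1, 1 without batch 2 and 1 without batch 3, and 161 without C4 replicate 1.

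Above C3 the changes continued for part of the genes. From C3 to C5, a 2.29-fold increase, 72 features rose (0.567%) and 225 fell (1.77%), with 1866 at an unadjusted p under 0.05, and both comparisons share the C3 libraries. The count was 263 without batch 1, 24 without batch 2, 88 without batch 3 and 711 without C4 replicate 1. The more abundant FABP1 feature changed by a further -1.93 (edgeR adjusted p = 0.000628), CYP3A4 by -2.68 (edgeR adjusted p = 1e-05) and ALB by -1.12 (edgeR adjusted p = 0.017). CXCL13 fell by 2.99 after its fall at the C2 to C3 step. SOX9 (0.35, edgeR adjusted p = 0.5), HP (-0.80, edgeR adjusted p = 0.142) and MT2A (0.76, edgeR adjusted p = 0.0647) did not pass in this range.

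Other features were called first above C3. CCL20, a chemokine for dendritic cells and lymphocytes, had a mean of 10.1 CPM at C2 and 15.3 CPM at C3 and rose to 111 CPM at C5 (log2 change 2.85, SE 0.365, edgeR adjusted p = 0.000171). MT1A rose by 2.60 from C3 to C5, and FAM180A fell by 2.83. PRR20G rose by 4.92, from 0, 0 and 1.48 CPM at C3 to 4.24, 3.72 and 38.6 CPM at C5, so that C5 replicate 3 carried most of the size of this change. HBG1 went the other way, from 53.8 CPM at C3 to 26.3 CPM at C5, without passing the test (edgeR adjusted p = 0.118). Over the features that rose between C2 and C3, the median of the group means was 28.3 CPM at C1, 32.0 at C2, 66.5 at C3, 72.6 at C4 and 84.3 at C5. Over those that fell it was 99.8, 81.2, 36.7, 31.9 and 23.1 CPM. The features were chosen on the difference between the C2 and C3 libraries. The C1, C4 and C5 values did not enter that difference. They did enter the filter, the scaling and the estimate of the spread, so they are not fully independent of the choice.

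**Figure D4:**
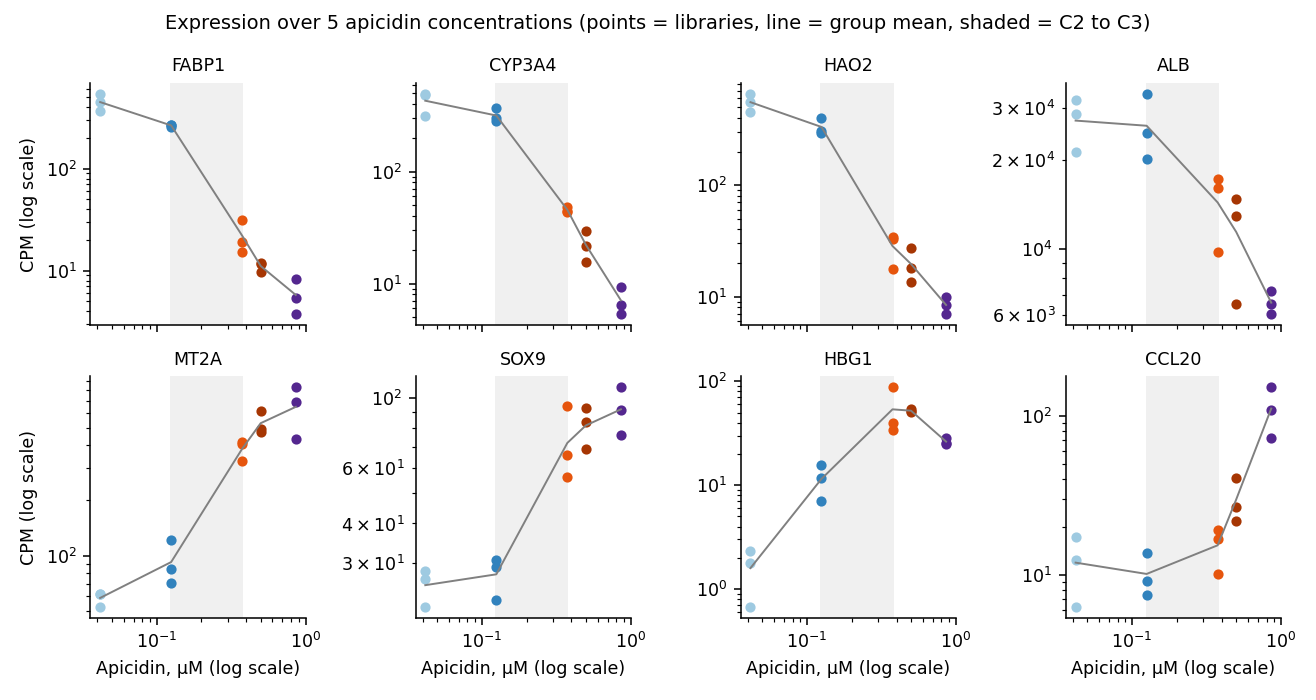
CPM on a log axis against apicidin concentration in µM on a log axis for 8 features; points are single libraries, lines join group means, and the shaded band marks C2 to C3. FABP1 (265 to 22 CPM), CYP3A4 (317 to 45.6 CPM), HAO2 (332 to 28.4 CPM) and ALB fall within the band, MT2A, SOX9 and HBG1 rise in it, and CCL20 goes from 15.3 CPM at C3 to 111 CPM at C5, above the band.

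Mocetinostat, a benzamide inhibitor of class I deacetylases, lay on the same plate and has a C2 to C3 step of the same ratio, at 0.531667 and 1.595 µM. The concentrations differ from those of apicidin, so the steps are set side by side as labelled and not at matched doses. Among 13684 features tested in both chemicals, the step differed in 2 above 0 (0.0146%) and 0 below 0 (0%), with 1353 at an unadjusted p under 0.05 by edgeR and 32 calls by DESeq2. BAAT fell by 2.73 with apicidin and by 4.78 (SE 0.268) with mocetinostat, where it had 1135, 1014 and 458 CPM at C2 and 34.4, 31.9 and 28.5 CPM at C3. The difference was 2.08 (SE 0.328, edgeR adjusted p = 0.0108). TSKU, a secreted proteoglycan, fell by 1.08 with apicidin and by 2.48 (SE 0.177) with mocetinostat (difference 1.43, SE 0.239, edgeR adjusted p = 0.0133). TSKU had 1448, 1429 and 827 CPM at C2 and 239, 210 and 214 CPM at C3 of mocetinostat, so C2 replicate 3 was the lowest of its group for both genes. Neither difference was called without batch 1 (edgeR adjusted p = 0.251) or batch 2 (edgeR adjusted p = 1), and most features without a call are not thereby shown to respond alike.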

How the data were processed

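The authors deposited whole-number read counts per TempO-Seq probe, not normalised, in 22069 rows and 118 libraries. One row (a SEC13 probe, the last of the table) had values in 30 libraries only and was left out. Rows may be missing after it. The submitters' processing notes name bcl2fastq 2.20.422, fastp 0.23.2, STAR 2.7.10b and DESeq2 1.38.0, without their roles, and no genome build. The paper named with the series describes another experiment. Its fold change of 1.5 was adopted. Reads carry no molecular identifiers, so PCR copies count as separate reads.

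The 15 apicidin libraries were fitted together in R 4.3.3 with edgeR 4.0.16 (filterByExpr, TMM scaling, quasi-likelihood F tests, Benjamini-Hochberg adjustment over all features tested), and 9362 features failed the filter. The 15 mocetinostat libraries were added for the comparison of both chemicals. Standard errors were derived from each log2 change and its F value. The pipeline was tested on simulated data. Named genes were the 12 rising and 12 falling called features with the largest change, the same sign in 3 batches and at least 10 CPM in the higher group, up to 4 called members per gene list, a fixed set of always reported genes, and the top 3 per direction of the other contrasts. Some genes that this rule names are not reported here. Members and lists were chosen with earlier results of these data known. Alternatives were DESeq2 1.42.0, RLE size factors, other filters and fold thresholds, only the 6 libraries of the step, left-out libraries and the batch as a block. The replicate numbers pair samples because the labels give them as HepaRG batches. In a check, deviations from group means had a median correlation of 0.0236 within and -0.0101 between batches.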

Additional observations from a re-analysis of the deposited data

Results flagged for a closer look

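The change from C2 to C3 differed between apicidin and mocetinostat in BAAT, by 2.08 on the log2 scale, and in TSKU, by 1.43. Both fell with both chemicals, and the fall was the larger one with mocetinostat. What singled them out was the test of the difference itself. The concentrations were not matched. C2 replicate 3 of mocetinostat was the lowest of its group for BAAT and TSKU, and without batch 3 the differences were 2.23 (edgeR adjusted p = 0.00238) and 1.51 (edgeR adjusted p = 0.0211). Both calls were lost without batch 1 (edgeR adjusted p = 0.251, differences 1.86 and 1.37) and without batch 2 (edgeR adjusted p = 1, differences 1.82 and 1.12).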

How the results depend on the processing

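The 988 calls of the C2 to C3 step became 578 at a fold change of at least 2. They were 1033 with the batch as a block (955 shared with the 988), 1202 with DESeq2 (980 shared) and 1409 with only the 6 libraries of the step (966 shared). Leaving out libraries gave 216 to 1424. The fits without batch 2 or 3 alone, and those without 1 library of the step, kept C4 replicate 1. That library was chosen for leaving out after the data were seen. Of 95 called features named, 70 kept their call in each of the 6 fits without 1 library of the step, and 0 turned their sign under any alternative. Without batch 1, 2 or 3, 90, 60 and 52 of the 95 kept their call. With C4 replicate 1 left out as well, 91 did so without batch 2 and 87 without batch 3. The block changed the call of 0 of the 95.

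The 13 calls of C2 against C1 became 44 without the filter, 7 with at least 10 counts in every library of a group, 44 with DESeq2, and 0 to 54 with libraries left out. The 297 of C5 against C3 became 504 without the filter, 517 with DESeq2, 187 at a fold change of at least 2 and 24 to 711 with libraries left out. The 39 of the step difference became 108 without the filter, 96 with DESeq2 and 1 to 161 with libraries left out. The 2 of the comparison with mocetinostat became 8 without the filter, 4 with the batch as a block, 32 with DESeq2 and 0 to 3 with libraries left out.

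Signs turned in 4 features that were not called, with libraries left out. Their log2 changes then ranged from -0.06 to 0.69 in HDAC1 (0.00 without C3 replicate 3), from -0.21 to 0.53 in KRT19_3690 (-0.09 without C2 replicate 2), from -0.49 to 0.07 in HDAC8 and from -0.39 to 0.22 in H1F0 (0.04 and 0.17 without C2 replicate 1 or 3). Depth limits features of few counts, such as CDKN1A and most neuronal genes, for which a change could not be tested.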
